A study of Mus musculus with 20 samples.

Results

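Cyclins, cyclin-dependent kinases (CDKs) and CDK inhibitors of the G1 phase were followed through the activation of mouse CD8 T cells. The set was listed by gene symbol as Ccnd2, Ccnd3, Ccne1, Cdk4, Cdk6, Cdkn1a, Cdkn1b, Cdkn2c and E2f1, and every probe set annotated to 1 of these symbols was taken. Of the 9 listed genes, 8 were on the array, through 12 of its 12488 probe sets, against 8251 genes with a symbol of their own in all. The expression of Cdk6 was not analysed here, and only the sequence before its start was examined.

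RNA came from CD8 T cells of OT-1 T cell receptor transgenic C57Bl6 mice aged 6 to 8 weeks, a line whose cells recognise an ovalbumin peptide on H-2Kb. CD44-low cells, the naive fraction, were enriched from lymph nodes by removing other cells, and were either lysed at 0 h (naive, 3 arrays) or cultured. Cultured cells met latex microspheres coated with the peptide on H-2Kb and with B7-1, a costimulatory protein (Ag-B7), always with human IL-2. Ag-B7 stood alone or was joined by mouse IL-12, by type I interferon (IFNa/b) or by trichostatin A (TSA, an inhibitor of histone deacetylases), and cells were collected at 24, 48 and 72 h, with TSA at 72 h only. At 48 h there were 4 arrays of Ag-B7 alone, 3 with IL-12 and 3 with IFNa/b, and each of the other 7 stimulated groups had 1 array and no replicate check. The design set naive cells, cells with antigen and B7, and cells with a cytokine as a further signal beside each other.

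In a resting T cell the retinoblastoma family of pocket proteins holds E2F transcription factors in check. Mitogenic signals raise D-type cyclins, which bind CDK4 or CDK6 and phosphorylate the pocket proteins, and cyclin E with CDK2 completes the step into S phase. Inhibitors of separate families oppose them, the INK4 proteins such as p18 (Cdkn2c), which bind CDK4 and CDK6, and the CIP/KIP proteins p21 (Cdkn1a) and p27 (Cdkn1b), which bind cyclin-CDK complexes more broadly. In naive T cells p27 is known to be abundant and to decline after activation, and much of that control acts on the protein rather than on its mRNA.

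All values are MAS5 signals, the linear brightness that the array software reports for a probe set, or log2 differences of signal + 46.4. The signal of 1 probe set cannot be set against that of another, so each gene is compared only with itself. The median signal of an array ran from 232 to 507. Naive arrays resembled each other less than stimulated ones did, with mean correlations to their own group of 0.848 to 0.9 against 0.948 to 0.963, and naive replicate 2 had the lowest. The ratio of 3' to 5' actin signal, a sign of RNA integrity, was 1.13 to 2.06 on naive arrays and 1 to 1.15 on stimulated ones. Defining markers of the labelled cells were bright in all groups, with Cd8a at 8010 to 14500 in naive cells, 9090 to 12300 after 48 h of Ag-B7, 6150 to 7360 with IL-12 and 8800 to 9820 with IFNa/b. Cd8b1 read 18900 to 31700, 9520 to 23900, 11600 to 13600 and 8940 to 17200 in the same order. Of 10 tested genes of CD8 T cell identity, 3, 4 and 3 fell from naive cells in these 3 groups, beside 35.6%, 34% and 33.1% of all genes. In the same groups 1, 1 and 0 rose. Markers of 6 other cell classes (B, myeloid, NK, CD4 and gamma-delta T, erythroid and stromal cells) were also present in naive cells. Their summed signal over 35 genes was 42800 to 56400 there, 12300 to 19600 with Ag-B7 at 48 h, 11000 to 11900 with IL-12 and 13700 to 17000 with IFNa/b, and no marker value was at 0. Of the 21 of these markers that were tested, 17 fell from naive cells to 48 h of Ag-B7 and 0 rose. The part of RNA integrity and of other cells in the differences from naive cells was not tested. In bulk RNA, fewer cells of a type and less RNA per cell cannot be told apart. Naive cells were not cultured, so antigen and B7 cannot be told apart from IL-2 and time in culture.

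Sequence upstream of a gene's start is shown for Cdk4, which had the smallest adjusted p of the 8 genes against naive cells, and for Cdkn1a, the member whose brightest probe set differed most from Ag-B7 alone when a cytokine was added at 48 h. Both windows are the 250 bases before the RefSeq start in GRCm38.p6, read 5′ to 3′ on the plus strand, which is the strand of both genes. Capitals mark CACGTG, the E-box that MYC-type factors bind, in the Cdk4 window at chr10:127063285-127063534. In the Cdkn1a window, at chr17:29090729-29090978 upstream of the more distal of 2 listed starts, capitals mark a pair of ACATGT copies 4 bases apart.
Cdk4: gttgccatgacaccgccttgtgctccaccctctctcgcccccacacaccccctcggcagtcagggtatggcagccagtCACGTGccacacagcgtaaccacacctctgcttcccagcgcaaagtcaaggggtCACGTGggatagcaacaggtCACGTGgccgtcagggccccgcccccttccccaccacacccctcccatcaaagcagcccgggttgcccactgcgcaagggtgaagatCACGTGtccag
Cdkn1a: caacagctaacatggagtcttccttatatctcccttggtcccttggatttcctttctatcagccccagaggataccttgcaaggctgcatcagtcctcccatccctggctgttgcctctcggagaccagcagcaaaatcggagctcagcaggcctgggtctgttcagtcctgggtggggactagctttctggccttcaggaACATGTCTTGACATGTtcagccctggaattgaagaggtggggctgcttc
The Cdk4 window held 4 copies of CACGTG, beginning 172, 118, 98 and 11 bases before the start. Of 32851 RefSeq windows of this length, 6.02% held at least 1 copy on either strand and 7 held 4 or more. Among the other listed genes with an entry only the Cdk6 window held 1, beginning 220 bases before the start. The pair in the Cdkn1a window lay 49 to 34 bases before the start, and 2 copies of ACATGT with any 4 bases between them were present in 4 windows (0.0122%). That motif was chosen after reading this sequence. As background, p53 binds paired sequences with a core such as CATG, and Cdkn1a is its best known target. The letters TTCNNNGAA, to which STAT factors bind, were present in 7.02% of all windows, on either strand, and in none of the 11 windows of the listed genes. The same holds for the E2F-type letters TTTCCCGC (0.895%), TTTGGCGC (0.417%) and TTTCGCGC (0.256%), while TGTTTAC, bound by FOXO factors (3.17%), stood 243 bases before a start of Ccnd3. Entries existed for 8 of the 9 listed genes, Cdk6 included. Ccnd2 had no entry, so no motif was searched for in its sequence. The window of E2f1, at chr2:154569427-154569676, lies inside the span of that gene in the same annotation (chr2:154559400-154569892, minus strand), so it does not show the bases before the outermost start. A match describes the letters of a window and nothing about binding in these cells.

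From naive cells to 48 h of Ag-B7, the cyclins Ccnd2 and Ccne1 and the kinase Cdk4 rose, and the inhibitor Cdkn1b fell on 1 of its 2 probe sets. Cdk4 rose 2.85-fold, Ccnd2 2.48-fold and Ccne1 1.79-fold. The other inhibitors, Cdkn1a and Cdkn2c, were within 1.11-fold of the naive level on their brightest probe sets and were not called, while the second Cdkn1a set stood 1.83-fold higher, also not called. With spike-in scaling both were called higher in limma, Cdkn1a by 1.71 (adjusted p = 0.000894) and Cdkn2c by 1.81 (adjusted p = 0.000141). Of the 8 genes, 3 rose and 1 fell at an adjusted p below 0.05 in limma, beside 61.7% of all 6279 genes tested that were called (26.1% higher and 35.6% lower), so this share of calls is near the background. The median difference of the 8 genes was 0.31 on the log2 scale, beside -0.23 for all genes. The arrays of both groups did not overlap for 5 of the 8 genes, beside 56% of all genes. The mean log2 signal of the bacterial spike-in controls was 13.39, 14.86 and 14.53 on the naive arrays and 12.24 to 12.7 with Ag-B7 at 48 h. Scaling to these controls, which varied among naive replicates, moved the median of all genes to 1.3. It moved the share of called genes that were higher from 42.3% to 97.5%. With median centring that share was 50.7%, and with quantile normalization 54.3%. Relative to the all-gene median of its own scaling, Cdk4 stood 1.74 higher on the deposited scale and 1.96 higher with spike-in scaling, and Cdkn1b -0.78 and -0.97. The labels call the replicates biological without naming mice or cultures, so p-values measure the spread between these arrays, part of which may be technical.

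**Figure D1:**
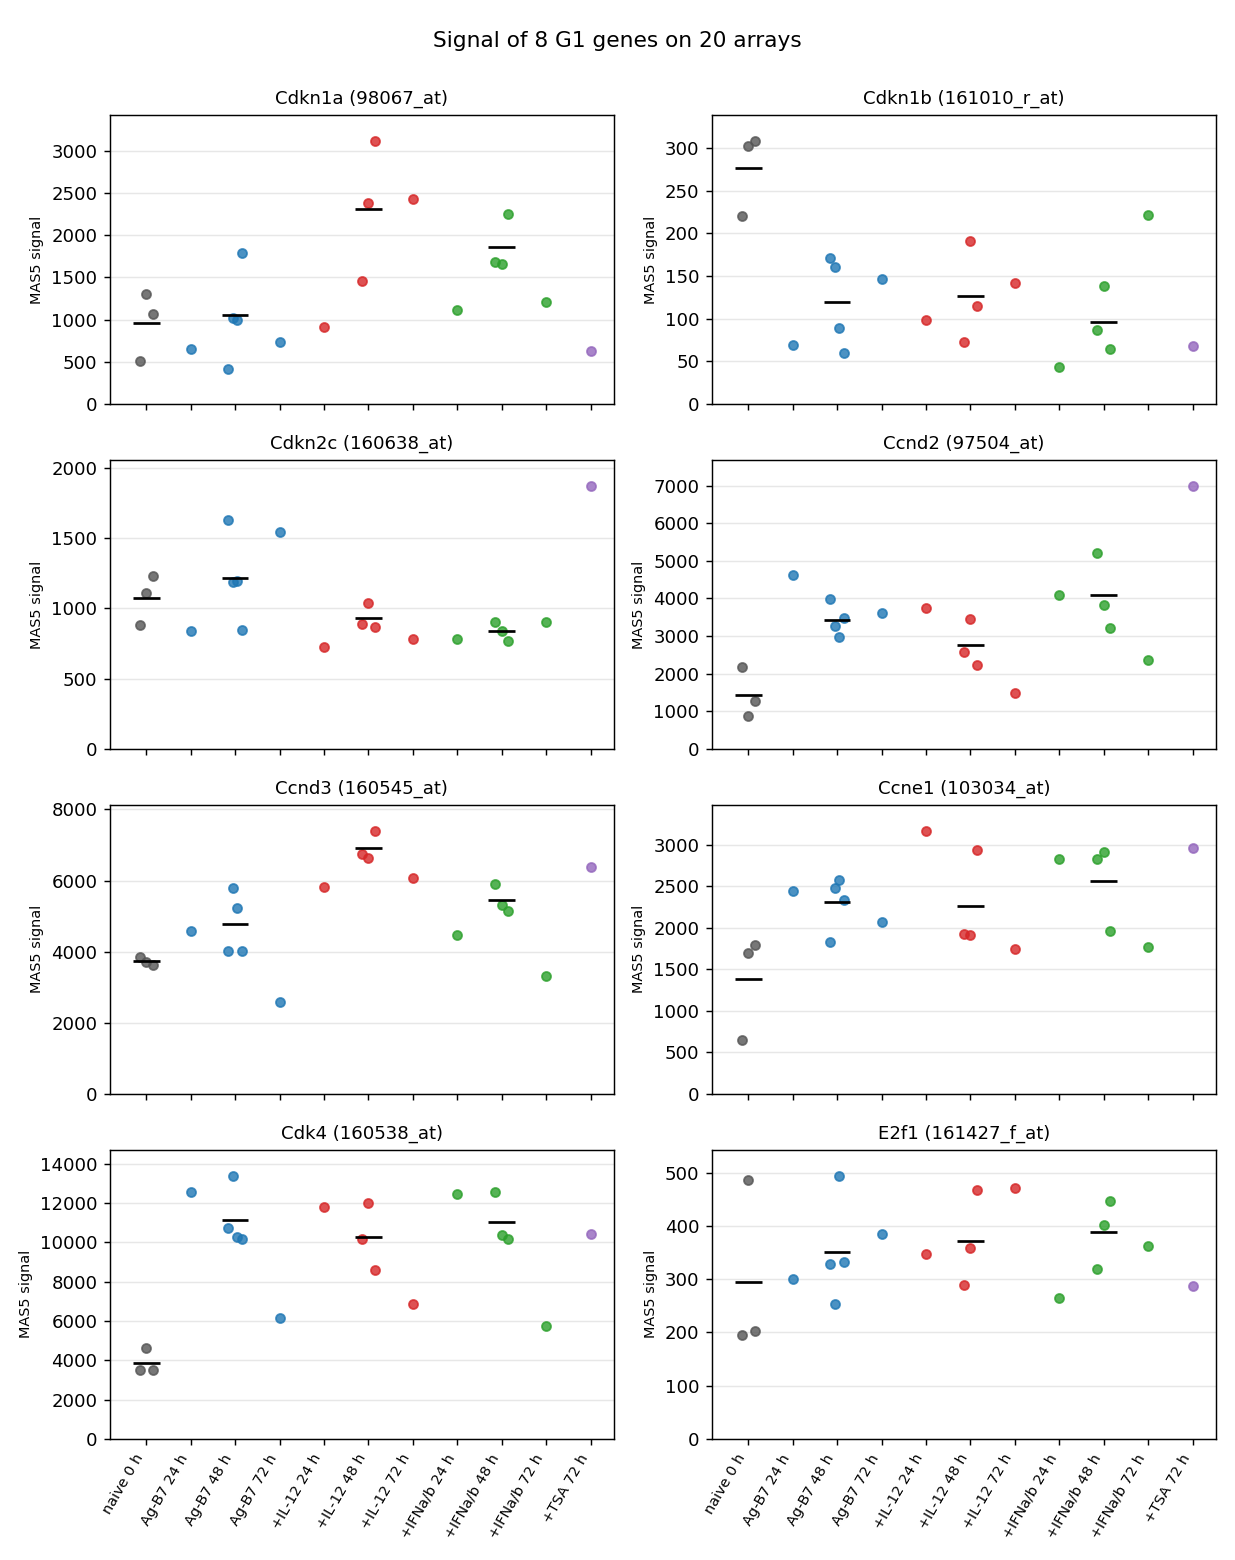
MAS5 signal (linear axis from 0) of the brightest probe set of each of 8 G1 genes on 20 arrays, by group. Each point is 1 array and bars are means of groups with 3 or 4 arrays. Cdk4 sits between 3509 and 4628 in naive cells and between 8577 and 13375 in the 48 h groups, and Cdkn1a reaches 3114 with IL-12 at 48 h.

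Ccnd2 encodes cyclin D2, the early D-type cyclin of activated lymphocytes. Its signal was 2190, 879 and 1266 on the 3 naive arrays and 3994, 3280, 2985 and 3483 on the 4 arrays of Ag-B7 at 48 h. All 4 stimulated arrays lay above all 3 naive ones. The log2 difference was 1.31 ± 0.26 (SE, n = 4 and 3, limma adjusted p = 0.000462), and it was 1.02 to 1.65 with any 1 array left out. With IL-12 the arrays read 2571, 3445 and 2236, and with IFNa/b 5199, 3826 and 3216. Both cytokine groups lay above naive, by 0.98 ± 0.28 and 1.54 ± 0.28 (limma adjusted p = 0.00691 and 0.000247). Over all 11 groups the naive mean was lowest and the TSA array at 72 h, at 6985, was highest. The IL-12 array at 72 h, at 1497, lay within the range of the naive arrays.

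Ccnd3 encodes cyclin D3, the D-type cyclin present in most lymphocytes. It was steady on the naive arrays at 3851, 3706 and 3639, and read 4029, 5789, 5226 and 4018 with Ag-B7 at 48 h. The groups did not overlap, but the difference of 0.33 ± 0.16 was not called (limma adjusted p = 0.0904, n = 4 and 3). It was called under median centring (0.52, adjusted p = 0.025) and with spike-in scaling (2.07, adjusted p = 4.96e-05). With IL-12 the 3 arrays read 6752, 6642 and 7393, all above every Ag-B7 and every naive array. The rise over naive cells was 0.88 ± 0.18 with IL-12 and 0.54 ± 0.18 with IFNa/b, whose arrays read 5915, 5319 and 5141 (limma adjusted p = 0.000524 and 0.015). Without IFNa/b replicate 1 the latter difference was 0.48 (limma adjusted p = 0.0592). Under quantile normalization it was 0.35 (adjusted p = 0.0979).

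Ccne1 encodes cyclin E1, the partner of CDK2 at the entry into S phase. Naive arrays read 645, 1695 and 1796, and Ag-B7 arrays 1827, 2484, 2571 and 2342. Naive replicate 1 stood far below the other naive arrays, and the groups came close to touching at 1796 and 1827. The difference was 0.84 ± 0.29 (limma adjusted p = 0.0209, n = 4 and 3), and without naive replicate 1 it was 0.38 and was no longer called (limma adjusted p = 0.163). With IL-12 (1929, 1919 and 2933) and IFNa/b (2824, 2916 and 1965) the rises over naive cells were 0.79 ± 0.31 and 0.98 ± 0.31 (limma adjusted p = 0.0391 and 0.0139). These too fell below the threshold without naive replicate 1, at 0.34 (adjusted p = 0.244) and 0.52 (adjusted p = 0.0746). The IL-12 call was also lost without IL-12 replicate 1 (0.89, adjusted p = 0.0507) or 3 (0.6, adjusted p = 0.156), and the IFNa/b call without IFNa/b replicate 2 (0.88, adjusted p = 0.0507). The IL-12 call was lost as well without the intensity trend (limma adjusted p = 0.0605) and with the compared groups alone in the fit (limma adjusted p = 0.0918).

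Cdk4, the kinase partner of the D-type cyclins, had the smallest adjusted p of the 8 genes. The brighter of its 2 probe sets read 3513, 4628 and 3509 in naive cells and 10731, 13375, 10255 and 10166 with Ag-B7 at 48 h. It rose by 1.51 ± 0.18 (limma adjusted p = 2.95e-06, n = 4 and 3), and by 1.42 to 1.64 with any 1 array left out. The dimmer probe set, 101017_at, read 769, 656 and 507 in naive cells and 4890, 1578, 2995 and 5144 with Ag-B7. It also rose, by 2.30 ± 0.34 (limma adjusted p = 3.45e-05 over 7637 probe sets, of which 60.8% were called). With IL-12 the brighter set read 10187, 12022 and 8577 and with IFNa/b 12557, 10360 and 10150, rises over naive cells of 1.39 ± 0.19 and 1.5 ± 0.19 (limma adjusted p = 1.54e-05 and 7.65e-06). No 48 h array of any treatment overlapped the naive arrays on either probe set.

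Cdkn1a encodes p21. Its brighter probe set, 98067_at, read 515, 1309 and 1068 in naive cells and 419, 1021, 999 and 1792 with Ag-B7 at 48 h. These ranges overlapped fully, and the difference was 0.06 ± 0.39 (95% interval -0.76 to 0.89, limma adjusted p = 0.899). Its sign turned without naive replicate 1 (-0.31) or Ag-B7 replicate 4 (-0.24). With IL-12 it read 1458, 2376 and 3114 and with IFNa/b 1680, 1664 and 2246, and in both groups every array lay above every naive array. Over naive cells it rose by 1.25 ± 0.42 with IL-12 (limma adjusted p = 0.0168) and by 1.00 ± 0.42 with IFNa/b (limma adjusted p = 0.0491). The IL-12 call was lost without naive replicate 1 (0.88, adjusted p = 0.0873) or IL-12 replicate 3 (1.01, adjusted p = 0.0754). The IFNa/b call was kept in 1 of 6 fits that left out 1 array each, that without naive replicate 2. It was lost without naive replicate 1 (0.62, adjusted p = 0.218) or 3 (1.12, adjusted p = 0.0593) and without IFNa/b replicate 1 (1.06, adjusted p = 0.0775), 2 (1.07, adjusted p = 0.0706) or 3 (0.86, adjusted p = 0.139). It was also lost with a smaller added constant (limma adjusted p = 0.0512), without a filter (0.0548), with a filter at the array median (0.0505), in the fit of every probe set (0.0504) and without the intensity trend (0.0733). The second probe set, 94881_at, read 264, 207 and 435 in naive cells, 693, 3180 and 1522 with IL-12 and 1163, 1590 and 2151 with IFNa/b. Its rises over naive cells were 2.21 ± 0.68 and 2.28 ± 0.68 (limma adjusted p = 0.0112 and 0.00935 over all probe sets). With Ag-B7 alone it read 80.2, 895, 749 and 1475, a difference from naive cells of 0.88 ± 0.63 that was not called.

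Cdkn1b encodes p27, and its 2 probe sets gave different answers. The brighter one, 161010_r_at, read 220, 302 and 308 in naive cells and 171, 160, 88.7 and 59.4 with Ag-B7 at 48 h, with every stimulated array below every naive one. The difference was -1.01 ± 0.38 (limma adjusted p = 0.0305, n = 4 and 3). It missed the threshold without naive replicate 2 (-0.95, adjusted p = 0.0698) or 3 (-0.94, adjusted p = 0.087) and without Ag-B7 replicate 3 (-0.93, adjusted p = 0.0613) or 4 (-0.81, adjusted p = 0.0928). It was -0.28 under quantile normalization (adjusted p = 0.514), -0.82 under median centring (adjusted p = 0.0787) and turned to 0.33 with spike-in scaling (adjusted p = 0.537). The suffix r marks a probe set for which Affymetrix relaxed its rules of probe choice. The other probe set, 100278_at, read 334, 68.1 and 415 in naive cells and 233, 212, 103 and 233 with Ag-B7, an overlapping difference of -0.21 ± 0.47 (limma adjusted p = 0.71). With IFNa/b the r set read 86.8, 138 and 64.8 and fell by 1.19 ± 0.41 from naive cells (-1.19, limma adjusted p = 0.0195). That call was lost without naive replicate 3 (-1.12, adjusted p = 0.0571) and without IFNa/b replicate 1 (-1.16, adjusted p = 0.0535) or 3 (-1.03, adjusted p = 0.0761). Under quantile normalization the difference was -0.49 and not called (limma adjusted p = 0.289). With IL-12 the r set read 73.3, 191 and 115 (-0.95 ± 0.41, limma adjusted p = 0.0562), and 100278_at read 30.7, 56.8 and 46.3 and was called lower than naive (-1.59 ± 0.51, limma adjusted p = 0.0137 over all probe sets). Leaving out naive replicate 1 or IL-12 replicate 2 brought the r set past the threshold (-1.08, adjusted p = 0.0497, and -1.2, adjusted p = 0.0348), as did a larger added constant (limma adjusted p = 0.0479), no filter (0.0494) and no intensity trend (0.0241).

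Cdkn2c encodes p18. It read 881, 1106 and 1227 in naive cells and 1626, 1186, 1192 and 848 with Ag-B7 at 48 h, and the arrays overlapped. The difference was 0.15 ± 0.22 (95% interval -0.32 to 0.62, limma adjusted p = 0.57). With IL-12 (891, 1035 and 866) and IFNa/b (900, 841 and 769) the differences from naive cells were -0.19 ± 0.24 and -0.33 ± 0.24, neither of them called. Over the 11 groups its group means stayed within a range of 1.31 on the log2 scale.

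E2f1, the transcription factor that the pocket proteins restrain, was read differently by its 2 probe sets. The brighter one, 161427_f_at, carries the suffix f, which Affymetrix gave to probes shared within a sequence family. It read 195, 486 and 203 in naive cells and 328, 253, 494 and 333 with Ag-B7 at 48 h, with overlap, and differed by 0.29 ± 0.32 (limma adjusted p = 0.438). The probe set without a suffix, 102963_at, read 11.7, 59.2 and 42.5 in naive cells and 308, 226, 198 and 358 with Ag-B7. Every 48 h array, with or without a cytokine, lay between 181 and 358 on this set, above every naive array. It rose by 1.94 ± 0.34 with Ag-B7, 1.86 ± 0.36 with IL-12 and 1.89 ± 0.36 with IFNa/b (limma adjusted p = 0.000153, 0.000427 and 0.000395 over all probe sets, of which 60.8%, 57.8% and 57.3% were called). The naive values are near or below the added 46.4, so this scale understates the rise. The f set was called under quantile normalization (0.98, adjusted p = 0.00758) and spike-in scaling (1.7, adjusted p = 0.000424), and for IFNa/b against naive cells without naive replicate 2 (0.82, adjusted p = 0.0388).

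**Figure D2:**
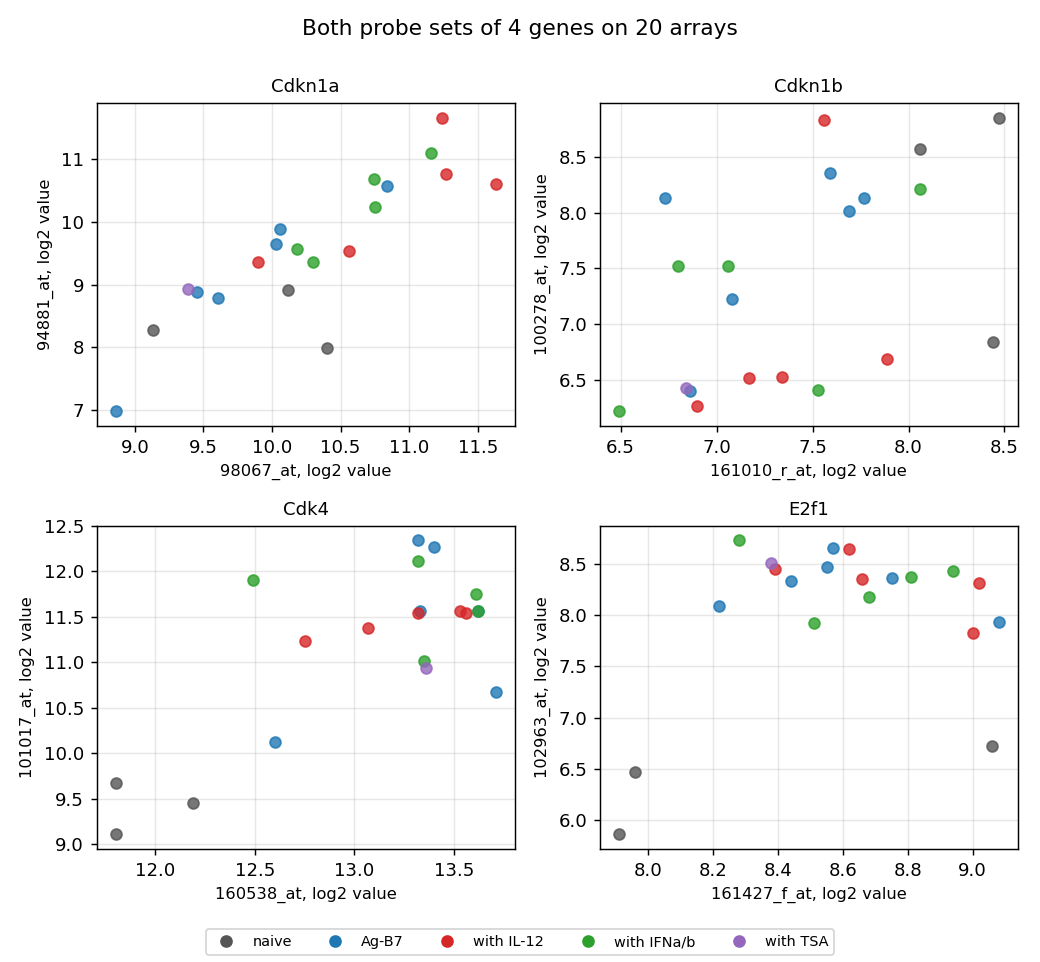
Log2 values (signal + 46.4) of both probe sets of Cdkn1a, Cdkn1b, Cdk4 and E2f1, brighter set on the horizontal axis, 1 point per array (n = 20), coloured by treatment. The sets of Cdkn1a correlated at 0.85 and those of E2f1 at 0.33, where the naive arrays sit apart on the vertical axis alone.

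Across the 20 arrays the log2 values of the paired probe sets correlated at 0.85 for Cdkn1a, 0.74 for Cdk4, 0.49 for Cdkn1b and 0.33 for E2f1. Each pair shares its RNA and labelling, so these figures describe the probe sets. For Cdkn1b and E2f1 the call against naive cells at 48 h of Ag-B7 differs with the probe set, and for Cdk4 it does not.

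Taking all 3 stimulated groups at 48 h, 5 of the 8 genes rose and 0 fell with IL-12 against naive cells, beside 58.8% of all genes called (24.8% higher, 34% lower). With IFNa/b 5 rose and 1 fell, beside 58.4% of all genes called (25.3% higher, 33.1% lower). The median difference of the 8 genes was 0.84 with IL-12 and 0.76 with IFNa/b, beside -0.27 and -0.25 for all genes. For each cytokine 6 of the 8 genes had arrays that did not overlap with the naive ones, beside 60.5% of all genes for IL-12 and 62.3% for IFNa/b. The 3 comparisons share the naive arrays. Without naive replicate 2, which had the lowest correlation with its group, 3 of the 8 genes were called for Ag-B7, 5 for IL-12 and 7 for IFNa/b. Genes called in all were then 3504, 3300 and 3282, in place of 3876, 3694 and 3664. Without IL-12 replicate 3 the IL-12 count was 3 of 8 (3399 genes in all), and without IFNa/b replicate 1 the IFNa/b count was 3 of 8 (3035 in all).

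The next comparison asks what a cytokine adds to Ag-B7. With IL-12 at 48 h the inhibitor Cdkn1a and the cyclin Ccnd3 had the largest differences of the 8 genes on their brightest probe sets. They stood 2.29-fold and 1.47-fold higher than with Ag-B7 alone. On its dimmer set, 100278_at, Cdkn1b stood 2.59-fold lower and was not called. None of the 8 genes passed the test in limma, beside 0.621% of all genes called (39 genes), and at an unadjusted p below 0.05 it was 2 of 8, beside 5.8% of all genes. Cdkn1a arrays read 1458, 2376 and 3114 with IL-12 and 419, 1021, 999 and 1792 without, so that 1 Ag-B7 array, replicate 4, lay above the lowest IL-12 array. The difference was 1.19 ± 0.39 (95% interval 0.37 to 2.02, limma adjusted p = 0.373, n = 3 and 4), and 0.83 to 1.49 with any 1 array left out, never called. The 39 genes called in all became 16, 22 and 17 without IL-12 replicate 1, 2 or 3 and 19, 25 and 22 without Ag-B7 replicate 1, 2 or 3. Ag-B7 replicate 4, the highest Ag-B7 array at 1792, has no numbered partner and drops out of a difference taken within replicate numbers. Between same-numbered arrays the differences were 1.69, 1.18 and 1.6, higher with IL-12 in 3 of 3 pairs. With the replicate number as a block the difference was 1.49, the mean of these 3 pairs, without a part for Ag-B7 replicate 4. It was called (limma adjusted p = 0.0131 with all 13 replicated arrays, 0.00539 with the 48 h arrays and 0.000687 with the groups compared alone). The blocked fit with the 48 h arrays called 81 genes in place of 39. Whether the numbers mark a shared preparation is not given in the labels, and the blocked result was already known when this comparison was read as paired. The second Cdkn1a probe set differed by 1.33 ± 0.63 (limma adjusted p = 0.921) and was higher with IL-12 in 3 of 3 same-numbered pairs.

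For Ccnd3, IL-12 arrays (6642 to 7393) lay wholly above Ag-B7 arrays (4018 to 5789), as did 7.17% of all genes in either direction. The difference was 0.55 ± 0.16 (95% interval 0.20 to 0.90, limma adjusted p = 0.266), and 0.48 to 0.65 with any 1 array left out. Under the replicate block it was 0.48 and not called (adjusted p = 0.494, 0.212 and 0.073 in the same order as above). On the unsuffixed Cdkn1b set the IL-12 arrays (30.7, 56.8 and 46.3) all lay below the Ag-B7 arrays (103 to 233), a difference of -1.38 ± 0.47 (limma adjusted p = 0.459), while the r set differed by 0.06 ± 0.38. Differences of Ccnd2 (-0.33 ± 0.26), Cdkn2c (-0.34 ± 0.22), Ccne1 (-0.04 ± 0.29), Cdk4 (-0.12 ± 0.18) and E2f1 (0.08 ± 0.32) had intervals that include 0. For Cdk4 the 95% interval was -0.49 to 0.25.

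IFNa/b added at 48 h gave 0 called genes of 8 in limma, beside 0.43% of all genes (27 genes), and 2 of 8 at an unadjusted p below 0.05, beside 4.55% of all genes. The 27 genes became 15 and 14 without IFNa/b replicate 1 or 2. The pair was Cdkn1a and Cdkn2c, the former higher and the latter lower. Cdkn1a read 1680, 1664 and 2246 with IFNa/b, all above Ag-B7 replicates 1 to 3 and overlapping with replicate 4, and differed by 0.94 ± 0.39 (limma adjusted p = 0.921). Cdkn2c read 900, 841 and 769 against 1626, 1186, 1192 and 848, a difference of -0.48 ± 0.22 (limma adjusted p = 1). The remaining 6 genes differed by -0.19 to 0.22. The arrays overlapped for all 8 genes, whereas 6.74% of all genes did not overlap.

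Between the cytokines at 48 h, none of the 8 genes was called in limma or had an unadjusted p below 0.05, beside 0.94% and 4.83% of all genes. Cdkn1a differed by 0.26 ± 0.42 between IL-12 and IFNa/b, with a 95% interval of -0.62 to 1.14. Ccnd2 read 2571, 3445 and 2236 with IL-12 and 5199, 3826 and 3216 with IFNa/b, a difference of -0.56 ± 0.28 (limma adjusted p = 0.999). Ccnd3 arrays with IL-12 all lay above those with IFNa/b (0.34 ± 0.18, limma adjusted p = 0.999), as 12.6% of all genes did not overlap in either direction.

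**Figure D3:**
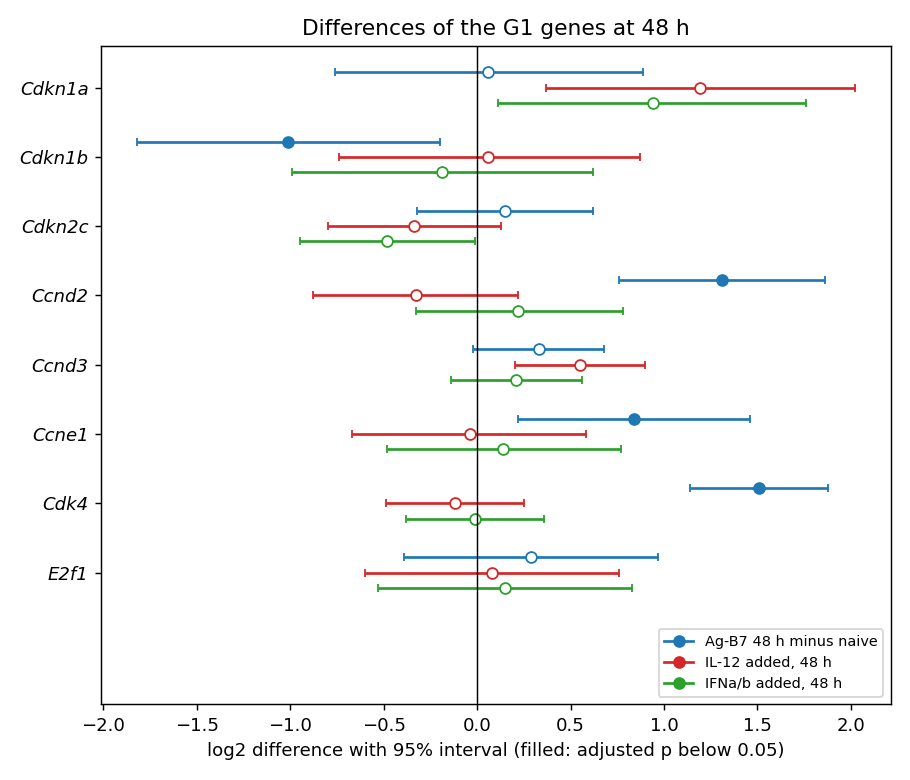
Log2 differences of 8 G1 genes at 48 h with 95% limma intervals, for Ag-B7 against naive cells and for IL-12 or IFNa/b against Ag-B7 alone. Filled points have an adjusted p below 0.05. The filled points are Cdk4 at 1.51, Ccnd2 at 1.31, Ccne1 at 0.84 and Cdkn1b at -1.01, all for Ag-B7 against naive cells.

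The time course rests on 1 array per group at 24 and 72 h, so its values describe those arrays and neighbouring groups cannot be ordered beyond their spread. For groups with replicates the SD of log2 values was 0.24 to 0.82 for Cdkn1a, 0.17 to 0.64 for Ccnd2, 0.04 to 0.26 for Ccnd3 and 0.17 to 0.24 for Cdk4. At 24 h of Ag-B7, 2 of the 8 genes were at least 2-fold above the naive mean and 1 was at least 2-fold below it, beside 51.8% of all genes in either direction. Ccnd2 stood at 4612 (log2 difference from the naive mean 1.74) and Cdk4 at 12541 (1.69), both near their 48 h level. Cdkn1b read 69.7 on the r set (-1.46) and 38.3 on 100278_at (-1.68). On the latter set all 3 arrays at 24 h, at 28.4 to 45.2, were below all 3 naive and all 4 Ag-B7 arrays at 48 h. Ccne1 stood at 2447 (0.94). From 24 to 48 h of Ag-B7 none of the 8 genes moved 2-fold or more on its brightest set, beside 5.64% of all genes, although Cdkn1b on 100278_at went up by 1.47.

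From 48 to 72 h of Ag-B7, Cdk4 went from 10166 to 13375 down to 6174, a difference of -0.84 from the 48 h mean, and the same step was -0.57 with IL-12 (6836) and -0.93 with IFNa/b (5724). All 3 of these 72 h arrays lay below every 24 and 48 h array, and above every naive one. The TSA array at 72 h read 10438. On the second Cdk4 probe set the 72 h arrays read 1068 with Ag-B7, 2351 with IL-12 and 3763 with IFNa/b, differences of -1.59, -0.26 and 0.33, so the sets did not move alike with IFNa/b. Set against Ag-B7 at 72 h, this probe set was higher by 1.11 with IL-12 and 1.77 with IFNa/b, where the brighter one differed by 0.15 and -0.11. Ccnd3 read 2592 with Ag-B7 at 72 h, its lowest value on any of the 20 arrays. On their brightest probe sets none of the 8 genes moved 2-fold or more from 48 to 72 h in any of the 3 treatments, beside 15.8% of all genes with Ag-B7, 15.7% with IL-12 and 11% with IFNa/b. Dimmer sets did: Cdkn1b on 100278_at stood 2.34 higher at 72 h with IL-12 (410) and 1.06 higher with IFNa/b (250), and Cdkn1a on 94881_at 1.31 lower with IFNa/b (-1.31, at 612).

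Cdkn1a, Ccnd3, Ccnd2 and Cdkn2c differed more with IL-12 on the 72 h arrays than at 24 or 48 h. The Ag-B7 array at 72 h also held more signal of other cell types, a sum of 31300 over 35 markers against 19700 with IL-12, 25200 with IFNa/b and 17600 with TSA, with B cell markers at 16360 against 7606 with IL-12. Of the 35 markers, 13 were lower and 22 higher with IL-12, none was at 0, and their part in the 72 h differences was not tested. At 72 h Cdkn1a read 2432 with IL-12 and 733 with Ag-B7 alone, and its log2 differences were 0.45 at 24 h, 1.19 at 48 h and 1.67 at 72 h. Ccnd3 differed by 0.34, 0.55 and 1.21 at the same times, with 6063 against 2592 at 72 h. The second Cdkn1a probe set differed by 0.47, 1.33 and 1.98. Ccnd2 went the other way (-0.30, -0.33 and -1.25), with 1497 against 3621 at 72 h. Cdkn2c also stood lower at each time (-0.20, -0.34 and -0.94). At 72 h, 2 of the 8 genes were at least 2-fold higher with IL-12 and 1 was at least 2-fold lower, beside 9.36% of all genes, and at 24 h none was, beside 3.42%. The 3 times have separate Ag-B7 controls, and 5 of the 8 genes kept their sign at all 3, beside 35.8% of all genes. Of those 5, Cdkn1a, Ccnd3 and E2f1 were higher each time, the last by at most 0.26, and Ccnd2 and Cdkn2c lower.

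With IFNa/b the Cdkn1a differences were 0.72, 0.94 and 0.69 at 24, 48 and 72 h, on 72 h arrays of 1213 against 733. Cdkn2c differed by -0.10, -0.48 and -0.74, and Ccnd2 by -0.17, 0.22 and -0.60. None of the 8 genes reached 2-fold at 24 or 72 h, beside 2.9% and 7.5% of all genes. The sign was the same at 3 times for 3 of the 8 genes, beside 34.5% of all genes, and these were Cdkn1a, Cdkn2c and Cdk4, the last within 0.11 of 0.

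**Figure D4:**
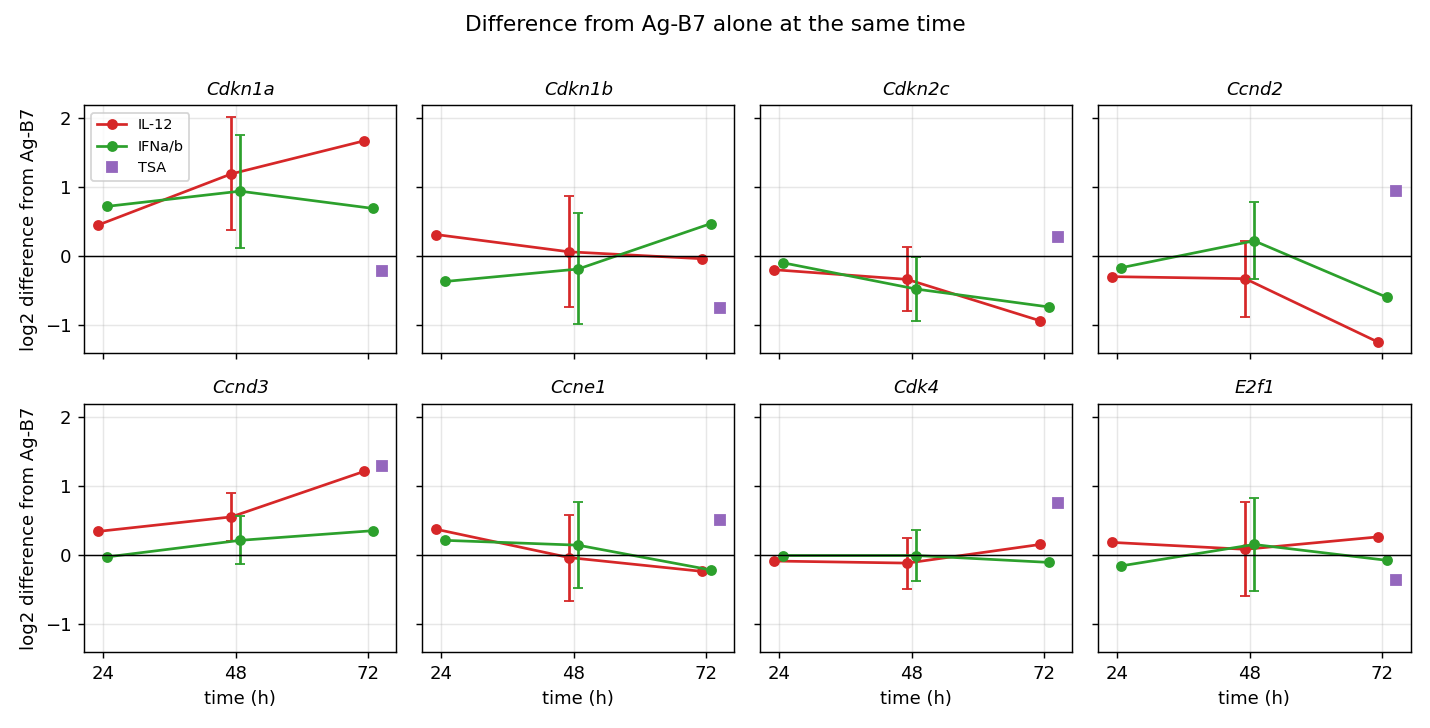
Log2 difference from Ag-B7 alone at the same time (24, 48 and 72 h) for 8 G1 genes, with IL-12 in red, IFNa/b in green and TSA at 72 h as a purple square, shifted sideways to be seen. Points at 24 and 72 h compare 1 array with 1 array, and bars at 48 h are 95% limma intervals. With IL-12, Cdkn1a goes from 0.45 to 1.67 and Ccnd2 from -0.30 to -1.25.

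TSA was measured on 1 array at 72 h. Ccnd3 read 6388 with TSA and 2592 with Ag-B7 alone (log2 difference 1.29), Ccnd2 6985 against 3621 (0.94) and Cdk4 10438 against 6174 (0.75). Cdkn1a, a gene that histone deacetylase inhibitors are known to raise in many cell lines, read 625 against 733 (-0.22), the lowest of the 11 group means. Single arrays of Ag-B7 at 48 h (replicate 1, 419) and of naive cells (replicate 1, 515) read lower still. On its second probe set it read 440 against 395 (0.14), and there the naive mean was lowest. Of the 8 genes 1 was at least 2-fold higher than with Ag-B7, beside 16.1% of all genes in either direction. Set against the IL-12 array of the same time, TSA had lower Cdkn1a (-1.88) and higher Ccnd2 (2.19) and Cdkn2c (1.21), while Ccnd3 was close (0.07). Those 3 genes passed 2-fold, beside 18.5% of all genes. Cdkn1b read 39.8 on 100278_at with TSA, against 279 with Ag-B7 and 410 with IL-12, and 68.2 on the r set, against 147 and 142.

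Among themselves, Cdk4, Ccne1 and Ccnd2 had similar patterns. Over the 11 group means, Pearson r was 0.90 for Cdk4 with Ccne1, 0.87 for Ccnd2 with Ccne1 and 0.75 for Ccnd2 with Cdk4, and over the 17 stimulated arrays it was 0.50, 0.52 and 0.56. Cdkn1b on the r set ran opposite to them over the 11 groups (-0.91 with Cdk4, -0.88 with Ccne1 and -0.79 with Ccnd2) and less so on the stimulated arrays (-0.44, -0.46 and -0.37). Cdkn1a and Cdkn2c were opposed on the stimulated arrays (-0.63), as were Cdkn1a and Ccnd2 (-0.56). These values share the scaling of each array and rest partly on the naive group. Of all genes, the group means most like those of Cdk4 were Rwdd4a, Psmd6 and Mrps17 (r of 0.986, 0.983 and 0.983 over 11 groups), and for Ccne1 they were Cdca4, Aifm1 and Chst2 (0.966, 0.962 and 0.954). For Cdkn1a they were Clcn3, Xbp1 and Tnfrsf18 (0.918, 0.882 and 0.881), of which Clcn3 and Xbp1 were also among the top 3 over the 10 stimulated groups, at 0.922 and 0.905. For Cdkn1b on the r set they were Tcte2, Ubxn6 and Kcne1 (0.971, 0.949 and 0.922), and for Cdkn2c Slc9a3r1, Igf1r and Vamp5 (0.947, 0.921 and 0.92). For Ccnd2 they were Rbm38, Extl3 and Bpgm (0.933, 0.922 and 0.917), for Ccnd3 Arf1, Rnf19b and Fabp5 (0.874, 0.873 and 0.873), and for E2f1 on the f set Fermt3, Ensa and Arpc2 (0.91, 0.896 and 0.894). Over the 10 stimulated groups Tcte2 and Ubxn6 recurred in the top 3 for Cdkn1b, Slc9a3r1 for Cdkn2c and Fabp5 for Ccnd3. For Cdk4, Ccne1, Ccnd2 and E2f1 none of the named genes recurred in the top 3. Whether leaving out another group would change those lists as much was not tested.

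Targets and neighbours of this switch were taken from 5 pathway lists. Of 17 tested E2F target and DNA replication genes, 15 rose and 0 fell from naive cells to 48 h of Ag-B7, beside 26.1% and 35.6% of all genes, with a median log2 difference of 2.23 beside -0.23 for all genes. The rises were led by the ribonucleotide reductase subunits Rrm1 (4.71 ± 0.35) and Rrm2 (3.67 ± 0.27), the primase subunit Prim1 (3.34 ± 0.24) and the thymidine kinase Tk1 (3.27 ± 0.32), followed by the origin licensing genes Cdc6 (3.07 ± 0.20) and Mcm5 (2.78 ± 0.18). Limma adjusted p-values of these 6 were at most 4.92e-07. The count of risers was 15 to 17 under the 3 other scalings and 15 without naive replicate 2. The 17 came with spike-in scaling, where 97.5% of the 3876 genes called in all were higher.

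Of 7 tested pocket protein, E2F and DP genes, 4 rose and 2 fell, beside 26.1% and 35.6% of all genes, with a median difference of 0.90. Tfdp1, the DP partner that E2F factors need to bind DNA, rose by 3.92 ± 0.19, on a probe set with an r suffix. The repressive E2f8, on a set with an f suffix, rose by 2.27 ± 0.29 and the pocket proteins Rb1 and Rbl1 by 1.06 ± 0.29 and 0.90 ± 0.18, while E2f5 (-1.07 ± 0.27) and the quiescence-linked pocket protein Rbl2 (-0.86 ± 0.27) fell. Limma adjusted p-values of the 6 ran from 1.13e-10 to 0.0111. With spike-in scaling 5 rose and 0 fell, where 97.5% of all called genes were higher.

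Of 17 other G1 and S cyclins, kinases and regulators, 9 rose and 2 fell, with a median difference of 0.58. Calls in both directions together were close in share to the 61.7% of all genes. The CDK-binding protein Cks1b, which also serves the ubiquitin ligase that targets p27, rose by 5.21 ± 0.18 and its relative Cks2 by 2.73 ± 0.25. Cyclin A2 (Ccna2, 2.35 ± 0.26), cyclin E2 (Ccne2, 1.58 ± 0.36) and Mnat1 of the CDK-activating kinase (1.34 ± 0.30) rose, and the D-type cyclin Ccnd1 fell by 1.27 ± 0.53 (-1.27, limma adjusted p = 0.0463). With spike-in scaling 13 rose and 0 fell, where 97.5% of all called genes were higher. With quantile normalization it was 8 and 0 (54.3% of all called genes higher) and with median centring 9 and 1 (50.7%). Without naive replicate 2 it was 8 and 1 (42.3%).

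Of 10 tested antiproliferative and quiescence genes, 0 rose and 8 fell, beside 26.1% and 35.6% of all genes, with a median of -1.45. Klf2, a factor of T cell quiescence, had a difference of -4.08 ± 0.45, Btg1 of -2.85 ± 0.31, Slfn1 of -2.24 ± 0.26, Klf4 of -1.9 ± 0.34, Txnip of -1.5 ± 0.40 and Btg2 of -1.40 ± 0.38 (limma adjusted p at most 0.00496). With spike-in scaling 2 rose and 2 fell, where 97.5% of all called genes were higher. Without naive replicate 2 all 10 fell, beside 3504 genes called in all, 42.3% of them higher. Markers of other cell types also fell in this comparison (17 of 21 tested), and their part in it was not tested.

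Of 10 tested p53 target genes, 3 rose (Perp by 2.58 ± 0.28, Ccng1 by 1.15 ± 0.21 and Ei24 by 1.05 ± 0.20) and 2 fell (Btg2 by 1.40 and Gadd45a by 1.27 ± 0.44), with a median of -0.52. These 5 calls of 10 do not exceed the share over all genes (61.7%). The median was 1.16 with spike-in scaling, beside 1.3 for all genes. There 7 rose, and 97.5% of all called genes were higher. When IL-12 or IFNa/b was added, 0 of these 10 genes were called, and the largest differences were 0.53 ± 0.33 for Phlda3 with IL-12 and 0.46 ± 0.24 for Mdm2 with IFNa/b. The pathway lists gave 1 called gene in each of those comparisons, Slfn1, an inhibitor of T cell growth, which was lower with IL-12 (-1.21 ± 0.26, limma adjusted p = 0.043) and higher with IFNa/b (1.42 ± 0.26, limma adjusted p = 0.0165). Its probe set may not tell Slfn family members apart. Klf2 of the same list, named here after its values were seen, differed by -1.44 ± 0.45 with IL-12 (limma adjusted p = 0.323). In the cell cycle lists the largest differences with IL-12 were those of Cdk2 (-0.44 ± 0.18), Lig1 (-0.40 ± 0.25) and Rb1 (0.30 ± 0.29), and with IFNa/b Ccng2 (-0.53 ± 0.36), Mcm7 (-0.34 ± 0.19) and E2f8 (-0.24 ± 0.29), none of them called. The E2F target list had a median of -0.05 with IL-12 and -0.12 with IFNa/b, beside -0.01 and 0 for all genes.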

How the data were processed

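The deposited files hold linear intensity, 1 value per probe set for each array, from MAS5 per the submitters' processing notes, with a version not given in the sources used here. Their trimmed mean (2% at each end) was 1000.5 to 1000.7 on all 20 arrays, so every difference is relative to an array's total. Symbols came from the array annotation, and only the 10833 probe sets with 1 symbol were named.

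Signals were transformed as log2(signal + 46.4), the median of the arrays' 20th percentiles. The brightest probe set stood for a gene. A gene was kept where it exceeded the 40th percentile of the array on 3 or more of 13 replicated arrays, which left 6279 genes and all 8 on the array. One limma model (limma 3.58.1, R 4.3.3) held the 4 replicated groups, with an intensity trend (9 residual and 7.62 prior degrees of freedom), and two-sided tests, with Benjamini-Hochberg adjustment over all genes kept and calls at an adjusted p below 0.05. Dimmer probe sets were tested in a fit of all 7637 probe sets kept. The script was tested on simulated data. Errors after ± are limma standard errors. The number of arrays limits the precision.

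The G1 genes, the 5 pathway lists and the 7 marker lists were chosen with earlier results of these data known. From each pathway list the text names up to 6 called genes with the largest difference, or the largest where none was called, and for each G1 gene the 3 with the most similar group means. Same-numbered arrays of Ag-B7 and IL-12 deviated together (r of 0.28 in each of 3 pairs), and those of Ag-B7 and IFNa/b did not (0.11, -0.04 and -0.1). The 9 same-numbered pairs at 48 h ran from -0.1 to 0.28, and the 24 differently numbered pairs from -0.3 to 0.45. Ag-B7 replicates 2, 3 and 4 stood at 0.28, 0.28 and 0.45 with IFNa/b replicates 1, 2 and 3. A shared number thus need not mark the arrays most alike. The pairing by number was applied to IL-12 against Ag-B7 alone, a reading made after the blocked results were known. Alternatives covered scaling, pseudocount, filter, probe set, variance model, arrays in the fit, replicate block and leaving out each array. The probe set without a suffix, the block with the compared groups alone, and the lists under other scalings or without naive replicate 2 were chosen after seeing the data. Sequences are from RefSeq (GRCm38.p6).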

Additional observations from a re-analysis of the deposited data

Results flagged for a closer look

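On the Cdkn1b probe set without a suffix, 100278_at, Ag-B7 replicate 3 at 48 h stood apart from the other 3 arrays of its group. It read 103 and the others 212 to 233, and the gap took up 0.874 of the group's range on the log2 scale. Only the group of 4 arrays could be examined this way, for 12 probe sets, and chance marks about 1 in 20 such groups. The r set of the same gene read 88.7 on that array, between 59.4 and 160.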

How the results depend on the processing

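The calls of Cdk4 and Ccnd2 against naive cells held in every fit run. Spike-in scaling turned Cdkn1b against naive cells to 0.33 (Ag-B7), 0.25 (IL-12) and 0.21 (IFNa/b) and Cdkn2c to 1.28 (IL-12) and 1.41 (IFNa/b). For Ag-B7 against naive cells it called 7 of the 8 G1 genes, beside 3876 genes in all, 97.5% of them higher. The deposited scale also called 3876 (61.7%). For IL-12 added, spike-in scaling called 16 genes in all. It also turned differences near 0: with IL-12 added, Cdkn1b to -0.083 and E2f1 to -0.097; with IFNa/b added, Cdk4 to 0.073; between the cytokines, Cdkn1a to -0.025 and Cdkn2c to -0.13. Quantile normalization turned Cdk4 with IFNa/b added to 0.03 and Cdkn2c with IL-12 against naive cells to 0.0044, and median centring the latter to 0.0096. Without the intensity trend 25 genes were called with IL-12 added. With the probe set without a suffix, IL-12 added gave Cdkn1b -1.38 and E2f1 -0.077, IFNa/b added gave E2f1 -0.049, and Cdkn1b between the cytokines was -0.65.

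The replicate block turned Cdkn1a for Ag-B7 against naive cells to -0.24 and Cdkn1b with IL-12 added to -0.13. It called 1 of the 8 genes, Cdkn1a, for IL-12 added and for IFNa/b added (1.24, adjusted p = 0.0328, 0.0134 and 0.0412 in limma with 13 arrays, the 48 h arrays and the compared groups). Same-numbered arrays of Ag-B7 and IFNa/b did not deviate together (r of 0.11, -0.04 and -0.1), so the block has little footing for IFNa/b. Without the block the IFNa/b difference of Cdkn1a was 0.94 and not called (limma adjusted p = 0.921). The genes called in all were 35, 81 and 191 for IL-12 added and 40, 103 and 71 for IFNa/b added, and 113 between the cytokines with the 48 h arrays. For Ag-B7 against naive cells Cdkn1b was -0.81 and no longer called under the block, and with IL-12 against naive cells it was -0.95 and called (adjusted p = 0.0456).

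With 1 array left out, 16 to 31 genes were called for IL-12 added and 14 to 32 for IFNa/b added, in place of 39 and 27. Against naive cells it was 3 to 6 of the 8 genes for IL-12, beside 3135 to 3819 genes in all. For IFNa/b it was 3 to 7 of the 8, beside 3035 to 3815 in all. Differences that crossed 0 ranged from -0.31 to 0.42 for Cdkn1a (Ag-B7 against naive cells). For IL-12 added they ranged from -0.19 to 0.3 (Cdkn1b), -0.24 to 0.056 (Ccne1), -0.24 to 0.00087 (Cdk4) and -0.077 to 0.24 (E2f1). For IFNa/b added Cdk4 ranged from -0.11 to 0.079, and between the cytokines Cdkn1b from -0.0081 to 0.49, Cdk4 from -0.23 to 0.013 and E2f1 from -0.23 to 0.078. The cause of these changes was not tested, beyond the smaller number of arrays. Low signals limit Cdkn1b and E2f1, whose naive or stimulated values lie near the added 46.4.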
